A study of Homo sapiens with 12 samples.

Results

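The 10 genes described here encode transcription factors of the primitive streak, the strip of the early embryo through which cells leave the epiblast to form mesoderm and endoderm. They were taken from the list TBXT, EOMES, MIXL1, GSC, MSGN1, TBX6, MESP1, MESP2, TBX3 and LHX1 and found by symbol in the platform annotation, 10 of the 18404 genes that had a probe set of 1 gene. Each of the 10 had exactly 1 such probe set, so all were measured. RNA was profiled on 12 Affymetrix Human Gene 1.0 ST arrays from the human embryonal carcinoma cell (hECC) lines 2102Ep and NTera-2, which grow as undifferentiated tumour stem cells. Cells were transfected for 6 hours with Ambion Silencer Select SOX2 siRNA (siSOX2) or with Silencer Select Negative Control #1, a non-targeting siRNA called control here, and harvested 72 hours later. The 4 groups were 2102Ep control, 2102Ep siSOX2, NTera-2 control and NTera-2 siSOX2, each with 3 arrays labelled as biological replicates. The Lipofectamine product and the siRNA amount were not the same for 2102Ep and NTera-2 cells, so the roles of line, reagent and amount cannot be told apart. A single siRNA against SOX2 was used in both lines, so other effects of that siRNA and the loss of SOX2 cannot be told apart.

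The streak forms where Wnt, Nodal and BMP signals meet in the epiblast, and pluripotent cells given these signals switch on the same factors. T-box proteins bind DNA through a shared domain: EOMES acts early in mesendoderm, TBXT (brachyury) drives mesoderm and notochord formation, TBX6 acts in presomitic mesoderm, and TBX3 acts in both pluripotent and differentiating cells. MSGN1, MESP1 and MESP2 are basic helix-loop-helix (bHLH) factors of presomitic, cardiac and segmenting mesoderm. MIXL1, GSC and LHX1 are homeodomain proteins of the streak and of the organizer at its anterior end. SOX2 is a core pluripotency factor.

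Since these genes are known responders to Wnt signals, their promoters were searched for the LEF/TCF letters CTTTGAA or CTTTGAT on both strands, from 250 bases before to 50 bases after the RefSeq start site (GRCh38.p14). RefSeq promoters were matched for 7 of the 10 genes (TBXT, EOMES, MIXL1, GSC, MSGN1, TBX6 and MESP2), with 2 start sites for TBXT. The letters were found in 3 of the 7 genes, TBXT, MSGN1 and MIXL1, against 6.86% of 35116 promoters of the same length. EOMES, which rose in 2102Ep cells as these 3 did, had no match. TBX3 and LHX1, which rose too, had no promoter to search. Whether the letters bear on the response was not tested. The windows of the 3 genes follow, each 29 bases, 5′ to 3′ on the gene's strand. The match is in capitals (in TBXT it is the reverse complement).
TBXT, GRCh38.p14 chr6:166167922-166167950, minus strand: ctgcccggcacTTCAAAGcgtgcgcggcc
MSGN1, GRCh38.p14 chr2:17816364-17816392, plus strand: tttggtttttcCTTTGAActctctttaca
MIXL1, GRCh38.p14 chr1:226223577-226223605, plus strand: cccgagcccacCTTTGATcgcaccgcccc

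Counted from the start site, the matches began at positions -88 (TBXT), -85 (MSGN1) and -76 (MIXL1). They lay in the promoter of 1 of the 2 TBXT start sites. Of the SOX letters, CATTGTN (10.8% of all promoters) was present in TBXT, and CTTTGTN (16% of all promoters) in none of the 7. The T-box letters AGGTGTG (4.59%) were found in MESP2, and the FOXH1 letters AATCCAC (2.31%), a Nodal-related motif, in MIXL1 and MESP2. In MESP2 both lie in the stretch chr15:89776166-89776194 (GRCh38.p14, plus strand), where they overlap, with the FOXH1 letters in capitals.
MESP2: caaggagtcagAATCCACacctccgcaaa
The GSC-type homeodomain letters TAATCC (6.36%) were absent from all 7, and the E-box CANNTG, which bHLH factors bind, was present in 6 of 7, against 68.7% of all promoters. A match is a run of letters and not a measured binding site.

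The values are log2 signals per probe set, where a step of 1 is a 2-fold change, and levels of different genes are not comparable because probes differ. Calls required both a limma p of at most 0.05 after Benjamini-Hochberg adjustment over all 18404 genes and a change of 2-fold or more, and only called changes are written as a rise or fall. Counts at an unadjusted p under 0.05 have no share of all genes beside them, so they cannot be set against a background. SOX2 itself went from 12.23 ± 0.043 (SD, n = 3) to 9.09 ± 0.259 (SD, n = 3) in 2102Ep cells and from 12.56 ± 0.066 (SD, n = 3) to 11.91 ± 0.049 (SD, n = 3) in NTera-2 cells, so the knock-down left far less SOX2 mRNA in 2102Ep. Array medians were 7.433 to 7.583, and arrays of 1 group correlated at 0.9825 to 0.9943. All 13 embryonal carcinoma markers were measured and their mean signal per array was 11.48 to 11.65 in 2102Ep control and 10.91 to 11.09 after siSOX2, without overlap, and 10.78 to 11.03 and 10.68 to 10.85 in NTera-2 (SOX2 is 1 of the 13). Between the control groups 3 of the 13 were called lower in NTera-2 and 1 higher, against 3.28% and 4.49% of all genes. The lower ones were ZFP42 (-4.14), CDH1 (-3.58) and EPCAM (-1.37), and the higher one was PODXL (1.06). ZFP42, a pluripotency gene, stood at 9.61 to 9.95 in 2102Ep control and 5.48 to 5.94 in NTera-2 control. After siSOX2 the median change of these 13 was -0.44 in 2102Ep, where SOX2 and TERF1 (-1.02) fell, and -0.20 in NTera-2, where CDH1 rose (1.54). At an unadjusted p under 0.05 there were 7 lower and 1 higher in 2102Ep and 5 lower and 2 higher in NTera-2. Of 7 fibroblast and 5 leukocyte markers 0 were called after siSOX2 in either line by limma. At an unadjusted p under 0.05 there were 3 fibroblast markers in 2102Ep (2 higher, 1 lower), 5 in NTera-2 (4 higher, 1 lower), and 1 and 0 leukocyte markers. The mean fibroblast signal per array was 7.21 to 7.45 in 2102Ep control and 7.45 to 7.54 after siSOX2, and 7.12 to 7.26 and 7.29 to 7.47 in NTera-2, while the leukocyte mean stayed within 5.75 to 6.15. Of 6 muscle and heart markers ACTC1 rose in 2102Ep cells (1.66 on the log2 scale), with the mean per array at 7.12 to 7.15 in control and 7.37 to 7.46 after siSOX2, and at 7.13 to 7.23 and 7.24 to 7.29 in NTera-2. The part of such cells in the results was not tested. In bulk RNA a change in the number of expressing cells and a change in RNA per cell cannot be told apart.

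The first question was which streak factors changed on SOX2 knock-down in 2102Ep cells. In this line 6 of the 10 rose (MSGN1, MIXL1, TBXT, TBX3, EOMES and LHX1) and 0 fell, against 1.15% of all genes called higher, 0.826% called lower and 1.98% called in either direction. By the adjusted p alone 8 of the 10 passed, against 12.7% of all genes. In limma, 9 had an unadjusted p under 0.05, 0 of them lower, for which no share of all genes was taken. The median log2 change of the 10 was 1.99, where that of all genes was -0.01. Arrays of the 2 groups did not overlap for 8 of the 10, all 8 higher after siSOX2, against 12.6% of all genes in that direction and 25.2% in both. The 2102Ep siSOX2 group had the highest mean of the 4 groups in all 10. Its arrays lay above all arrays of the next group in 8, but overlapped with them in GSC and MESP1. The share of all genes with this group highest was not taken.

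**Figure D1:**
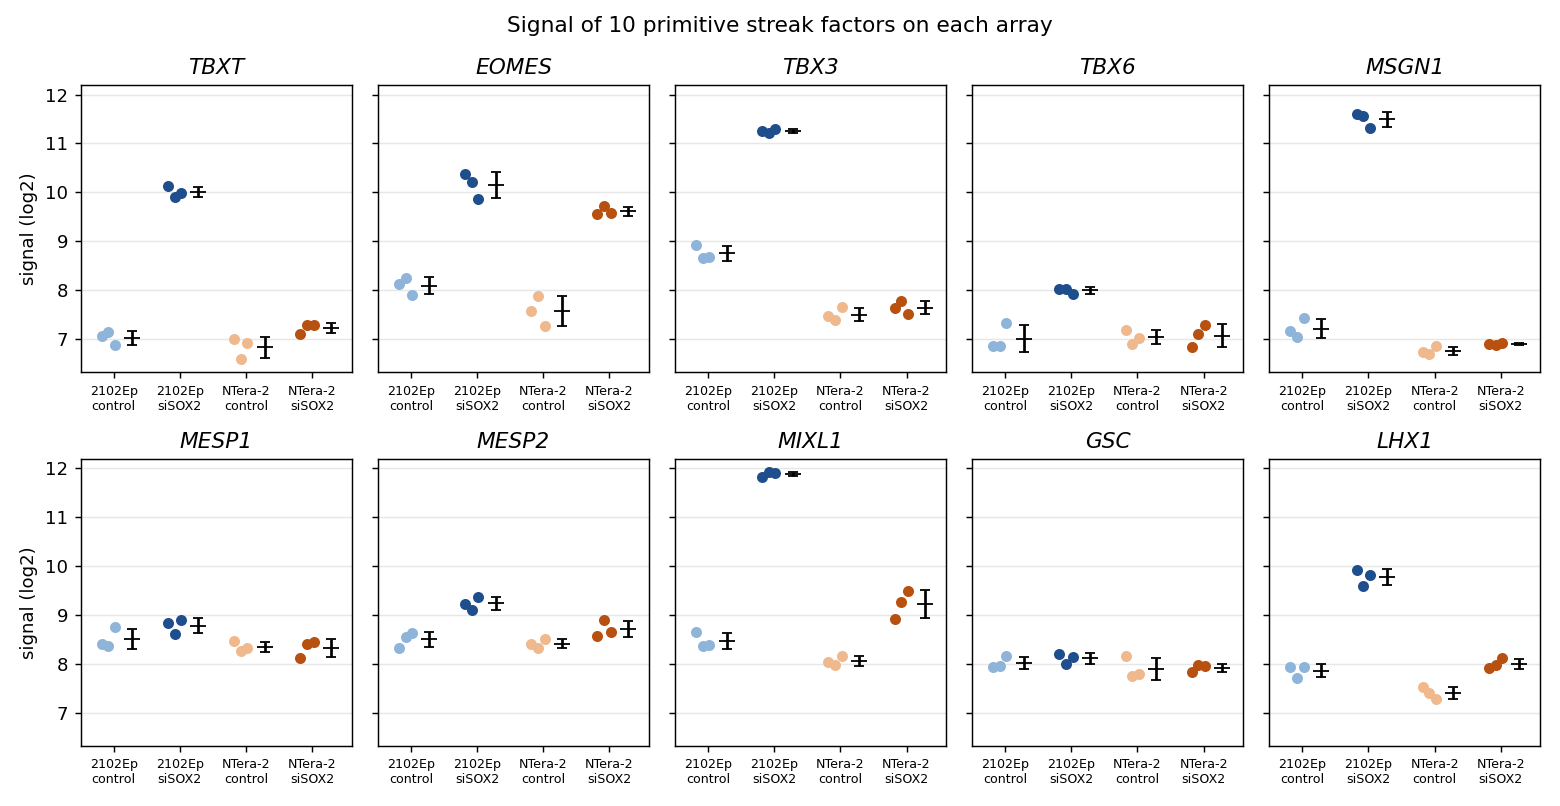
Signal (log2, vertical axis) of the 10 streak factors by group (horizontal axis), where each coloured point is 1 of the 12 arrays and black bars give the group mean and SD. In 2102Ep siSOX2 the arrays of MSGN1 lie at 11.31 to 11.6 against 6.69 to 7.42 in the other 3 groups, EOMES is high in both siSOX2 groups, and the GSC groups overlap.

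Among the T-box genes, TBXT stood at 7.06, 7.15 and 6.87 on the 2102Ep control arrays and at 10.12, 9.91 and 9.99 after siSOX2. The groups were far apart, and TBXT rose by 2.98 ± 0.121 (log2 change and SE; adjusted p = 1.67e-11), or 7.88-fold. EOMES gave 8.12, 8.24 and 7.9 in 2102Ep control and 10.38, 10.21 and 9.86 after siSOX2. No siSOX2 array of EOMES reached down to the controls, although the siSOX2 arrays were more widely spread than those of TBXT, and it rose by 2.06 ± 0.153 (SE; adjusted p = 4e-08), or 4.17-fold.

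TBX3 was measured at 8.93, 8.66 and 8.67 in 2102Ep control and at 11.25, 11.21 and 11.29 after siSOX2. Its siSOX2 arrays were the most tightly grouped of the 10 genes in this line (SD 0.04), and the rise was 2.50 ± 0.112 (SE; adjusted p = 4.93e-11), or 5.65-fold. The presomitic factor TBX6 gave 6.85, 6.85 and 7.32 in control and 8.03, 8.03 and 7.92 after siSOX2. All siSOX2 arrays of TBX6 were above all controls, and the change of 0.98 (SE 0.139, 95% interval 0.69 to 1.28, adjusted p = 7.85e-05) passed the adjusted p but lay just under 2-fold. Control replicate 3 was the highest of the controls; without it the change was 1.14, and without 2102Ep siSOX2 replicate 3 it was 1.02, which are past 2-fold.

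Of the bHLH genes, MSGN1 had the largest change of the 10. It stood at 7.17, 7.04 and 7.42 in 2102Ep control and at 11.6, 11.57 and 11.31 after siSOX2. The rise of 4.28 ± 0.115 (SE; adjusted p = 8.64e-14), or 19.5-fold, ranked 2 among the 18404 genes. MESP2, which sets segment borders in presomitic mesoderm, gave 8.33, 8.54 and 8.63 in control and 9.23, 9.11 and 9.37 after siSOX2. The MESP2 groups did not overlap, but the change was 0.73 (95% interval 0.49 to 0.98, adjusted p = 0.000261), under 2-fold. MESP1, a factor of cardiac mesoderm, gave 8.41, 8.37 and 8.75 in control and 8.83, 8.62 and 8.9 after siSOX2. These groups overlapped and the change of 0.27 (95% interval 0.00 to 0.54, adjusted p = 0.216) was not called. MESP1 and MESP2 are paralogues, and whether RNA of one binds probes of the other was not tested.

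The changes of the 3 homeodomain genes ran from 0.10 to 3.42. MIXL1 stood at 8.65, 8.36 and 8.39 in 2102Ep control and at 11.83, 11.92 and 11.9 after siSOX2. It was the second-largest change of the 10 at 3.42 ± 0.131 (SE; adjusted p = 7.76e-12), or 10.7-fold. LHX1, which acts in the organizer and in intermediate mesoderm, gave 7.93, 7.71 and 7.94 in control and 9.92, 9.59 and 9.81 after siSOX2. The groups were well separated and LHX1 rose by 1.91 ± 0.116 (SE; adjusted p = 3.26e-09), or 3.76-fold. GSC (goosecoid), the classical organizer gene, gave 7.93, 7.95 and 8.16 in control and 8.21, 7.99 and 8.13 after siSOX2. Those ranges overlapped, and the interval of its change (0.10, 95% interval -0.16 to 0.35, adjusted p = 0.735) left out a 2-fold rise.

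The second question was the same for NTera-2 cells. Here 2 of the 10 rose, EOMES and MIXL1, and 0 fell, against 0.31% of all genes called higher, 0.348% lower and 0.657% in either direction. By the adjusted p alone 3 of the 10 passed, against 4.94% of all genes. In limma, 5 had an unadjusted p under 0.05, 0 of them lower, for which no share of all genes was taken. The median change of the 10 was 0.21 and that of all genes 0.04. Arrays did not overlap for 6 of the 10, all higher after siSOX2, against 14.2% of all genes in that direction and 21.3% in both. For 4 of these 6 (TBXT, MSGN1, MESP2 and LHX1) the change stayed under 2-fold.

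EOMES gave 7.58, 7.87 and 7.27 in NTera-2 control and 9.55, 9.72 and 9.58 after siSOX2. The lowest siSOX2 array was well above the highest control, and the rise of 2.04 ± 0.153 (SE; adjusted p = 2.26e-07), or 4.12-fold, ranked 7 among the 18404 genes. MIXL1 gave 8.03, 7.97 and 8.17 in control and 8.92, 9.27 and 9.49 after siSOX2. It rose by 1.17 ± 0.131 (SE; adjusted p = 1.96e-05), or 2.25-fold, and its siSOX2 arrays were more spread (SD 0.283) than in 2102Ep siSOX2 (SD 0.049).

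LHX1 was the third gene to pass the adjusted p, but without a 2-fold change. It gave 7.53, 7.4 and 7.29 in NTera-2 control and 7.91, 7.97 and 8.12 after siSOX2, a change of 0.59 (95% interval 0.35 to 0.84, adjusted p = 0.00428). TBXT gave 7, 6.59 and 6.91 in control and 7.11, 7.29 and 7.29 after siSOX2. The TBXT groups did not overlap, yet the change of 0.40 (95% interval 0.15 to 0.66, adjusted p = 0.0725) did not pass the adjusted p, and its interval lay below 2-fold. MSGN1 gave 6.74, 6.69 and 6.85 in control and 6.9, 6.87 and 6.92 after siSOX2. The gap between the groups was narrow, and the change was 0.14 (95% interval -0.11 to 0.38, adjusted p = 0.687). MESP2 gave 8.4, 8.33 and 8.51 in control and 8.57, 8.89 and 8.66 after siSOX2, with a change of 0.29 (95% interval 0.04 to 0.54, adjusted p = 0.228).

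The remaining 4 genes had overlapping groups in NTera-2. TBX3 gave 7.46, 7.39 and 7.65 in control and 7.64, 7.78 and 7.51 after siSOX2 (change 0.14, 95% interval -0.10 to 0.38, adjusted p = 0.666). TBX6 gave 7.19, 6.9 and 7.01 in control and 6.83, 7.1 and 7.28 after siSOX2 (change 0.04, 95% interval -0.25 to 0.34, adjusted p = 0.952). For both, the upper bound of the interval was under 2-fold. GSC gave 8.16, 7.75 and 7.79 in control and 7.83, 7.98 and 7.96 after siSOX2 (change 0.03, adjusted p = 0.969). MESP1 gave 8.46, 8.27 and 8.32 in control and 8.12, 8.4 and 8.45 after siSOX2 (change -0.03, adjusted p = 0.969). The sign of the last 3 changes turned when single arrays were left out, and that of GSC also on median centring.

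The third question was whether the response of each gene differed between the lines, tested as the 2102Ep response minus the NTera-2 response. For 5 of the 10 it was larger in 2102Ep cells, and for 0 larger in NTera-2, against 0.989% of all genes called in that direction, 0.668% in the other and 1.66% in either. By the adjusted p alone 6 of the 10 passed, against 5.2% of all genes. In limma, 7 had an unadjusted p under 0.05, 0 of them larger in NTera-2, for which no share of all genes was taken. Of all 18404 genes MSGN1 ranked 1 in this difference (4.15 ± 0.163, SE; adjusted p = 9.36e-11). TBXT differed by 2.58 ± 0.171 (adjusted p = 4.87e-08), TBX3 by 2.36 ± 0.159 (adjusted p = 5.16e-08), MIXL1 by 2.25 ± 0.185 (adjusted p = 5.43e-07) and LHX1 by 1.32 ± 0.164 (adjusted p = 6.56e-05). The SOX2 mRNA response differed by -2.49 ± 0.165 (SE). The arrays do not measure SOX2 protein, and reagent and siRNA amount differed between the lines as well. By Western blot, the study reports SOX2 protein as undetectable after siSOX2 in both lines.

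EOMES was the exception among the 6 genes that rose in 2102Ep cells. Its responses of 2.06 and 2.04 differed by 0.02 ± 0.217 (SE, 95% interval -0.44 to 0.48, adjusted p = 0.993), so a difference of 2-fold lay outside the interval. The sign of this small difference turned with the arrays left out. The responses of TBX6 differed by 0.94 (95% interval 0.53 to 1.36, adjusted p = 0.00734), which passed the adjusted p but not 2-fold. It passed 2-fold without 2102Ep control replicate 3 (1.10), without NTera-2 control replicate 2 (1.01) and without NTera-2 siSOX2 replicate 3 (1.05). MESP2 (0.44, 95% interval 0.10 to 0.79, adjusted p = 0.168), MESP1 (0.30, 95% interval -0.08 to 0.67, adjusted p = 0.527) and GSC (0.07, 95% interval -0.29 to 0.43, adjusted p = 0.943) were not called.

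**Figure D2:**
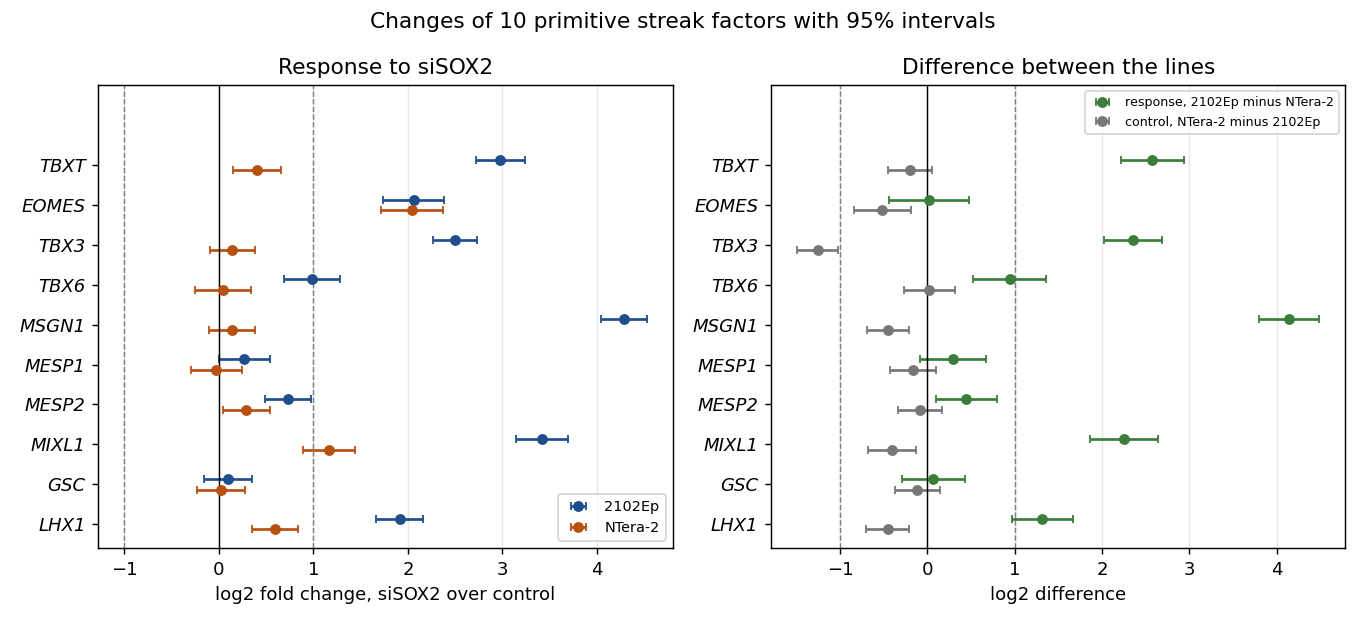
Log2 changes (horizontal axis) of the 10 genes (vertical axis) with 95% intervals as bars: left, siSOX2 over control in each line; right, the 2102Ep minus the NTera-2 response and the NTera-2 minus the 2102Ep control level, with dashed lines at 2-fold. The 2 points of EOMES coincide on the left (2.06 and 2.04), whereas those of MSGN1 stand at 4.28 and 0.14.

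The fourth comparison set the control cells of the lines against each other, sharing its control arrays with the comparisons above. TBX3 was the 1 gene called: 7.46, 7.39 and 7.65 in NTera-2 control against 8.93, 8.66 and 8.67 in 2102Ep control, a difference of -1.25 ± 0.112 (SE; adjusted p = 1.18e-07), where 3.28% of all genes were called lower in NTera-2, 4.49% higher and 7.76% in either direction. By the adjusted p alone 5 of the 10 passed, against 42.4% of all genes, so that this share of the 10 is near the background. The control arrays did not overlap for 5 of the 10, all lower in NTera-2 (26.8% of all genes in that direction and 50.5% in both). Besides TBX3 these were EOMES (-0.51, adjusted p = 0.0119), LHX1 (-0.45, adjusted p = 0.00427), MSGN1 (-0.45, adjusted p = 0.00438) and MIXL1 (-0.41, adjusted p = 0.0186), all under 2-fold. EOMES no longer passed the adjusted p without NTera-2 control replicate 3 (-0.36, adjusted p = 0.0875), nor MIXL1 without 2102Ep control replicate 1 (-0.32, adjusted p = 0.0888) or NTera-2 control replicate 2 (-0.36, adjusted p = 0.0719). TBXT, GSC, MESP1, MESP2 and TBX6 had overlapping controls, with differences from -0.20 (TBXT) to 0.02 (TBX6).

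Put in order, the 4 groups gave several patterns. For EOMES and MIXL1 the order was 2102Ep siSOX2, NTera-2 siSOX2, 2102Ep control and NTera-2 control, and no neighbouring groups overlapped. MSGN1 and TBX3 had the order 2102Ep siSOX2, 2102Ep control, NTera-2 siSOX2 and NTera-2 control, where the 2 NTera-2 groups of TBX3 overlapped. In MSGN1 the 2102Ep control mean (7.21) lay close to the NTera-2 means (6.9 and 6.76) and far from that of 2102Ep siSOX2 (11.49). For TBX3 even the 2102Ep control arrays (8.66 to 8.93) lay above the NTera-2 siSOX2 arrays (7.51 to 7.78). In TBXT, TBX6 and MESP2 the 2102Ep siSOX2 arrays stood alone at the top and the other 3 groups overlapped with their neighbours. In LHX1, NTera-2 siSOX2 (7.91 to 8.12) overlapped with 2102Ep control (7.71 to 7.94), and NTera-2 control (7.29 to 7.53) lay below both. For GSC and MESP1 all neighbouring groups overlapped.

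Genes with the most similar pattern were found by the root mean square distance between 2 genes' log2 signals over the 12 arrays, each centred on its own mean, as a description. Nearest to TBXT were SLPI (0.2), a secreted protease inhibitor, FMOD (0.212) and APOA2 (0.243), and nearest to MIXL1 were TBXT (0.348), FMOD (0.378) and the apelin receptor APLNR (0.388). MSGN1 lay nearest ATP12A (0.501), TNS4 (0.517) and TBX3 (0.651), and TBX3 nearest SKAP2 (0.24), ATP12A (0.259) and TNS4 (0.299). LHX1 was nearest CXCL14 (0.189), the BMP-binding protein gene BMPER (0.192) and MYOCD (0.209), a cofactor of smooth and cardiac muscle genes. EOMES had other neighbours, the semaphorin receptor gene PLXNA2 (0.378), GAD1 (0.381) and ALPK2 (0.42), and lay 0.851 from TBXT and 1.457 from MSGN1. PLXNA2 and ALPK2 changed by 2.02 and 1.5 in 2102Ep and by 1.81 and 2.16 in NTera-2.

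Further genes of the pathway were taken from lists and are given by counts beside the shares of all genes above. The lists were chosen with earlier results of these data known, so the counts support nothing on their own. Of 18 other streak and early mesoderm genes 12 rose in 2102Ep cells and 0 fell by limma (median 1.42, 0 lower at an unadjusted p under 0.05), led by adjusted p by LGR5 (4.84), a Wnt target, HAND1 (4.03), a bHLH factor of mesoderm, LEF1 (3.70), the effector of Wnt signalling, and APLNR (3.92). In NTera-2 cells 7 of the 18 rose and 0 fell by limma (median 0.31, 1 lower at an unadjusted p under 0.05), among them HAND1 (1.76), SNAI2 (2.07), a repressor of epithelial genes, LEF1 (1.53) and LGR5 (1.18). For 10 of the 18 the response was called larger in 2102Ep.

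Of 13 genes for streak-inducing signals and their partners 2 rose in 2102Ep cells, the Wnt ligand WNT8A (2.44, adjusted p = 3.2e-11) and BMP4 (1.16, adjusted p = 8.15e-06), and CRIPTO, the Nodal co-receptor, fell by 1.16 on the log2 scale (adjusted p = 0.00369). The 10 uncalled genes ran from -0.899 to 0.814 in 2102Ep. By limma, 9 of the 13 were higher and 3 lower there at an unadjusted p under 0.05. In NTera-2 cells CRIPTO fell by 1.02 (adjusted p = 0.0227) and 0 rose by limma (4 higher and 4 lower at an unadjusted p under 0.05), with 12 genes between -0.78 and 0.36. The WNT8A response was larger in 2102Ep by 2.12 ± 0.15 (SE; adjusted p = 1.04e-07). In control cells 3 of these 13 were called lower in NTera-2 and 0 higher, against 3.28% and 4.49% of all genes. Named here after their values were seen, they were the ligands NODAL (-2.74) and WNT3 (-2.36) and the Nodal cofactor FOXH1 (-1.10). The 10 uncalled genes were lower in NTera-2 too, from -0.895 to -0.079. By limma, 12 of the 13 were lower at an unadjusted p under 0.05 and 0 higher.

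The same gene families hold further members. Of 13 other T-box genes TBX22, a factor of palate development, rose in 2102Ep (2.47, adjusted p = 8.4e-10), with the remaining 12 between -0.21 and 0.99. By limma, 5 of the 13 were higher and 0 lower in 2102Ep at an unadjusted p under 0.05. None, 0 of 13, was called in NTera-2 by limma (-0.35 to 0.67, with 3 at an unadjusted p under 0.05). Of 13 other LIM homeobox genes and LIM cofactors 0 were called in either line by limma (-0.66 to 0.96 in 2102Ep, -0.58 to 0.66 in NTera-2; 5 and 4 at an unadjusted p under 0.05). Of 17 presomitic mesoderm and segmentation genes, the list nearest the known roles of MSGN1, TBX6 and MESP2, 1 rose in 2102Ep, the retinoic acid-degrading enzyme CYP26A1 (1.26, adjusted p = 6.43e-06), with 16 between -0.39 and 0.62. This list had 3 higher and 1 lower in 2102Ep at an unadjusted p under 0.05 by limma. It had 0 called in NTera-2 by limma (5 at an unadjusted p under 0.05). Of 8 definitive endoderm genes GATA6 rose in 2102Ep (1.28, adjusted p = 1.29e-06), with 7 between -0.27 and 0.40. By limma, 4 of the 8 were higher and 1 lower in 2102Ep at an unadjusted p under 0.05. In NTera-2 0 of these were called by limma (2 at an unadjusted p under 0.05).

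**Figure D3:**
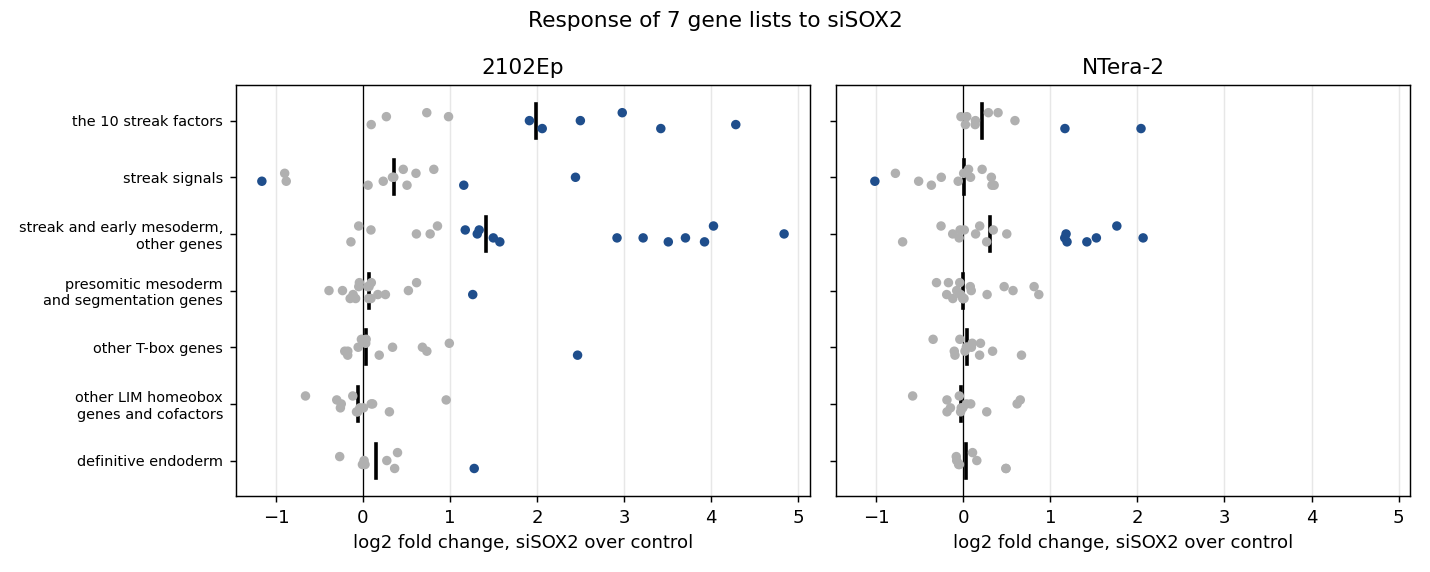
Each point is a gene of the 10 streak factors or of 6 further lists (rows), placed by its log2 fold change of siSOX2 over control (horizontal axis) and blue where called; black bars are list medians, 2102Ep is on the left and NTera-2 on the right. The medians of the streak factors are 1.99 and 0.21 and those of the other streak and early mesoderm genes 1.42 and 0.31, while the other lists lie nearer 0.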

How the data were processed

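The authors hybridised RNA to Affymetrix Human Gene 1.0 ST arrays and deposited log2 signals, 1 value for each probe set and array. They summarised probes by the robust multi-array average in the scanner maker's software (version and log base: not given in the sources used here; log2 was taken from the range, 1.57 to 14.98). This method compresses weak signals, and fold changes of weakly expressed genes can come out too small. The submitters' processing notes name limma. Precision rests on the number of arrays.

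In the platform annotation 19158 of 32321 probe sets had a single gene, 1388 had several (not named) and 11775 had none. These gave 18404 genes, 18376 of them with a current RefSeq symbol (GRCh38.p14). Where a gene had more than 1 probe set, the brightest on average represented it. A mean per group was fitted over all 12 arrays (lmFit, contrasts and eBayes; limma 3.58.1, data.table version 1.17.8, R 4.3.3), and adjusted p values are from that fit unless a left-out array or another setting is named beside them. Figures used matplotlib 3.10.9 and pandas 2.3.3 (Python 3.11.15). For a single gene, an exact permutation test of 3 against 3 arrays (two-sided) has 0.1 as its smallest p.

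On simulated data with the design of siSOX2 against control in 2102Ep (18404 genes), the fit recovered 100% of 100 genes changed by 1.5 and 100% of 100 changed by 3 (log2), with 0 false calls. Changes near 1 were not simulated.

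The 10 genes and all lists were chosen with earlier results of these data known, so they support nothing on their own. Besides the 10, the text names SOX2, per list up to 4 genes called in each line by smallest adjusted p, the 3 nearest patterns of each called gene, cell type markers and, outside this rule, 3 signal genes called between the controls. The settings tried as alternatives were a block for the replicate number, fitting the compared groups alone, leaving out weakly expressed genes, centring arrays on their median, a second quantile normalization, a trended robust prior, averaged probe sets, no fold threshold, and leaving out each array. Groups follow the sample titles.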

Additional observations from a re-analysis of the deposited data

Results flagged for a closer look

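The response to siSOX2 differed between the lines, by the limma test of the difference itself (2102Ep minus NTera-2, log2), for 5 of the 10 genes: 4.145 for MSGN1, 2.578 for TBXT, 2.356 for TBX3, 2.253 for MIXL1 and 1.318 for LHX1. In each of the 5, all 3 siSOX2 arrays lay above all 3 controls in 2102Ep, as for 12.6% of all genes. The same held in NTera-2 for TBXT, MIXL1, MSGN1 and LHX1, and for 14.2% of all genes. Because the 5 were picked by their called difference, this separation supports nothing on its own. Line, transfection reagent and siRNA amount cannot be told apart in this difference.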

How the results depend on the processing

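Under all 19 alternatives that included the gene, the calls of EOMES, MIXL1, MSGN1, TBX3 and LHX1 in 2102Ep held (18 for TBXT, which the filter on weakly expressed genes left out with GSC and TBX6), as did those of EOMES and MIXL1 in NTera-2, the 5 differences in response and the difference of TBX3 between the controls. Leaving out 1 array gave 6 to 7 called genes in 2102Ep, 2 in NTera-2, 5 to 6 for the response difference and 1 for the controls. With no fold threshold 5 genes in place of 1 were called between the controls, all lower in NTera-2. The change of TBX6 in 2102Ep reached the threshold on renewed quantile normalization (1, adjusted p = 2.04e-05).

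Several changes near 0 turned sign, none of them called. In NTera-2, the change of GSC was -0.012 on median centring and -0.013 on quantile normalization. With 1 array left out, the NTera-2 changes ran from -0.05 to 0.156 for GSC, from -0.089 to 0.074 for MESP1 and from -0.065 to 0.161 for TBX6. The response difference then ran from -0.133 to 0.17 for EOMES and from -0.06 to 0.146 for GSC, and the control difference of TBX6 from -0.054 to 0.178. The cause was not tested.

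The replicate block, which joined arrays of the same number over both lines, gave 6, 2, 5 and 1 called genes in the 4 comparisons and changed no call. It does not test a pairing within each line. The deviations of same-numbered control and siSOX2 arrays from their group means correlated at -0.2494 to 0.1789. Of the control arrays, only 2102Ep replicate 2 correlated best with its own number (0.1789 against 0.1474), so the numbers were not taken as pairs.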
